A study of Mus musculus with 8 samples.

Results

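Pax6 binding at 9 genes that are known from the developing forebrain as Pax6 targets or partners was examined in alphaTC1, a glucagon-producing line of mouse pancreatic alpha cells. The genes were Meis1, Meis2, Eomes, Sox11, Zic1, Zic2, Pak3, Tle1 and Neurog2, and every site of the authors' deposited table that carried one of these symbols was taken, whatever its signal. That gave 19 sites of 26244, at 6 of the 9 genes: Meis1 had 9 sites, Tle1 had 4, Meis2 had 3, and Eomes, Sox11 and Pak3 had 1 each. Zic1, Zic2 and Neurog2 had no listed site.

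The cells had been given antisense oligonucleotides with a scrambled sequence (control KD) or directed at Paupar (Paupar KD), whose gene lies beside Pax6 and yields a long non-coding RNA. Each group had 2 Pax6 chromatin immunoprecipitation (ChIP-seq) libraries, titled replicates 1 and 2, and 2 input libraries that were not analysed here. The study asked whether Pax6 occupied different sites once Paupar was depleted. Both groups are the same transformed mouse line, the labels name no clone or passage, and this assay measures binding, so neither RNA levels of these genes nor the depth of knockdown were seen. The alpha-cell marker genes Gcg, Irx1, Irx2, Etv1 and Ttr each carried at least 1 listed Pax6 site, which does not show that they were expressed.

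Pax6 is a transcription factor with a paired domain and a homeodomain. In the embryonic cortex it drives radial glial progenitors towards neurons, acting upstream of the proneural factor Neurog2 and of the intermediate-progenitor factor Eomes (Tbr2), and it works with Meis homeodomain partners. In the pancreas the same factor is needed for alpha cells and for the glucagon gene.

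For 2 of the 19 sites, at Meis1 and at Pak3, the listed 100 bp lay in full inside a RefSeq promoter window, so their bases can be shown. Each line below gives the 250 bases before a RefSeq start on the strand of the gene (GRCm38.p6, the assembly called mm10), 5′ to 3′, and capitals mark the bases of the listed Pax6 site. Throughout, the RefSeq start is that of the promoter window, which need not be the outermost start. The RefSeq span of Meis1 reaches farther, to 19019651, and that of Pak3 begins at 143518366. Both listed sites therefore lie inside the span of their gene. The Eomes promoter follows for contrast: no Pax6 site was listed in it, and its capitals mark a pair of homeodomain half-sites.
Meis1 (chr11:19018970-19019219, minus strand): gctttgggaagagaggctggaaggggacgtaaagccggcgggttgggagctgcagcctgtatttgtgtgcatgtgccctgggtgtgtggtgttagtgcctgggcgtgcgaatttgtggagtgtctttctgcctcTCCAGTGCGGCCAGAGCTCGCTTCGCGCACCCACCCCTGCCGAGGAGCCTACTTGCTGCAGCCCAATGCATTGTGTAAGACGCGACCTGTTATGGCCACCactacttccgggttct
Pak3 (chrX:143518341-143518590, plus strand): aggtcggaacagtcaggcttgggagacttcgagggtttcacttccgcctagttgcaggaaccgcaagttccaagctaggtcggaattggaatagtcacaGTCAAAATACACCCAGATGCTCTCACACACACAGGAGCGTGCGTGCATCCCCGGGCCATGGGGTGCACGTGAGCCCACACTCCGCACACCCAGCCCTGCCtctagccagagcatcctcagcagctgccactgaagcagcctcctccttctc
Eomes (chr9:118477939-118478188, plus strand): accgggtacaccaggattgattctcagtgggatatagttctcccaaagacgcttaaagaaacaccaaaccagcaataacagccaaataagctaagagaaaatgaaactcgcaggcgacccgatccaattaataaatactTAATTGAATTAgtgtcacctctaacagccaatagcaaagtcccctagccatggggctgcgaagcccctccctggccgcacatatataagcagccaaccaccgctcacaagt

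Counted from the start, the Meis1 site covered bases -116 to -17 and the Pak3 site bases -151 to -52. Their GC contents were 63.0% and 64.0%, with 7 and 5 CpG dinucleotides, against a median GC content of 59.0% over the 1227 listed sites that lay in full inside any promoter window. Both strands were searched for 5 short motifs: the paired-domain core TTCANGC, the homeodomain pair TAATNNNATTA, the palindrome TAATTA, the Meis core TGACAG and the E-box CAGCTG; matches to TAATTA and to TAATNNNATTA can overlap. None of the 5 was found in the listed bases of Meis1 or of Pak3. Over the 1227 sites, TTCANGC was in 4.4%, TAATNNNATTA in 0.163%, TAATTA in 0.733%, TGACAG in 6.6% and CAGCTG in 6.93%. In the Pak3 promoter an E-box began 31 bases before the start, outside the listed site. The Eomes promoter held TAATTGAATTA, a match to TAATNNNATTA, beginning at base -111, and 160 of 32851 promoter windows (0.487%) held such a match. A match describes letters and is not evidence of binding. In the promoter windows, which add 50 bases after the start to the 250 before it, TTCANGC was in 10.8%, TAATTA in 5.29%, TGACAG in 19.2% and CAGCTG in 16.3%.

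Across the 19 sites, 1 was higher after Paupar KD at a false discovery rate (FDR) below 0.05 and 0 were lower, per the authors' deposited table. Of all 25234 sites inside the authors' adjustment, 3.39% were higher and 0.880% lower, so 1 of the 18 member sites inside it, or 5.56%, is near the background. At an FDR below 0.1 the count was 2 (11.1%, background 5.19%), and at an FDR below 0.01 it was 0 (background 1.45%), per the authors' deposited table. At their unadjusted p below 0.05, 5 of the 19 sites had more signal after Paupar KD (26.3%, against 10.7% of all 26244 sites), per the authors' deposited table. All 5 lay in introns of Meis1 or past the end of Tle1, so they do not describe the set of genes as a whole. No member site had less signal at an FDR below 0.1 (background 1.87%), at an FDR below 0.01 (background 0.143%) or at an unadjusted p below 0.05 (background 6.67%), per the authors' deposited table.

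The signal of a site is the authors' mean concentration, read as log2, over the libraries of a group, always for 100 bp, so that sites of different genes can be set side by side. It has no value per library and therefore no error. Where a pair of concentrations is given, control KD comes first and Paupar KD second. In control KD the 19 sites ranged from -0.01 to 6.53 with a median of 3.50, and in Paupar KD from 3.0 to 6.37 with a median of 4.45. Medians over all sites of the table were 4.34 and 4.48. The median log2 change (Paupar KD minus control KD) was 0.43 over the member sites and -0.03 over all sites. These are descriptions of a chosen set of genes. Signal in control KD and the sign of the change went together throughout the table. Split at a concentration of 4 in control KD, a value chosen after the data were seen, 11 of 12 member sites below it had a positive change (91.7%), and so had 78.4% of all sites below it. At or above it, 2 of 7 member sites had a positive change (28.6%), against 27.5% of all. The control KD value enters both the split and the change, so these shares are no test.

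**Figure D1:**
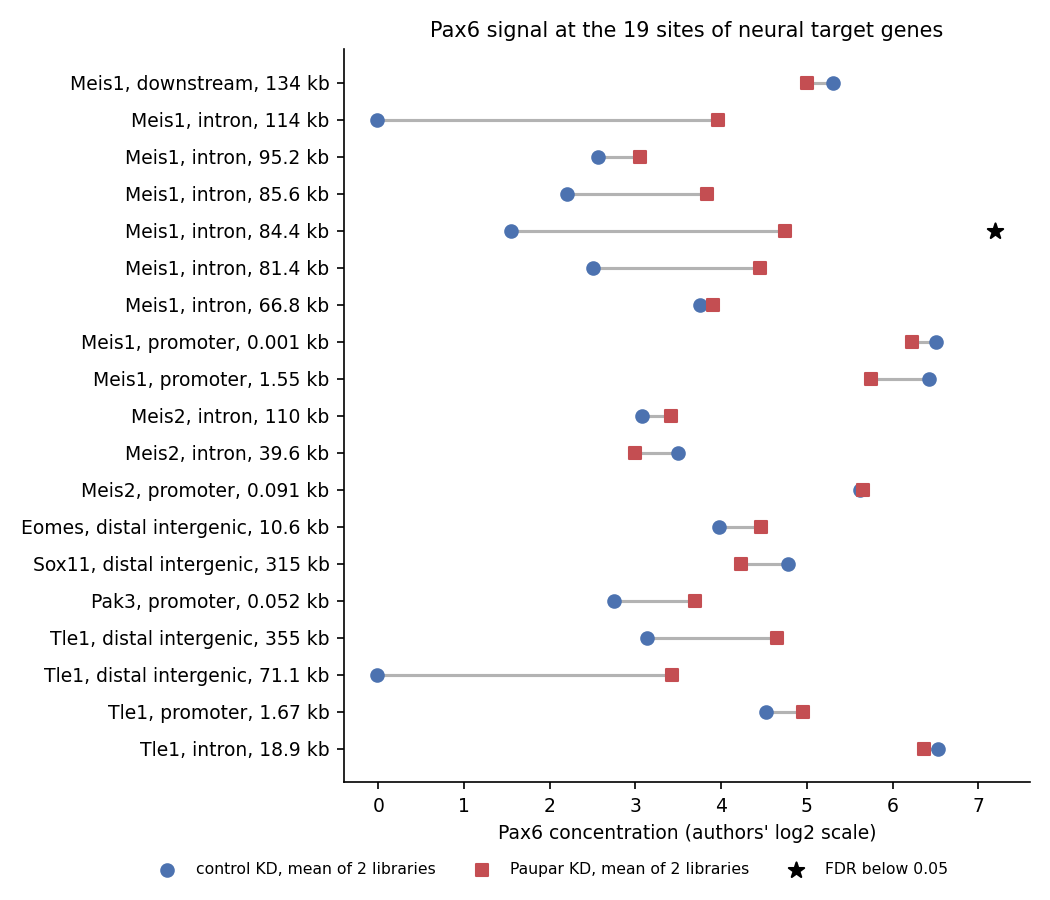
Authors' mean Pax6 concentration (log2 scale) in control KD (circles) and Paupar KD (squares) at the 19 sites, each labelled with its gene, annotation class and distance to the annotated start; grey lines join the pair and the star marks the site with an FDR below 0.05. The 3 sites above 6 in control KD have their squares to the left of the circles, and the longest lines start below 2.

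**Figure D2:**
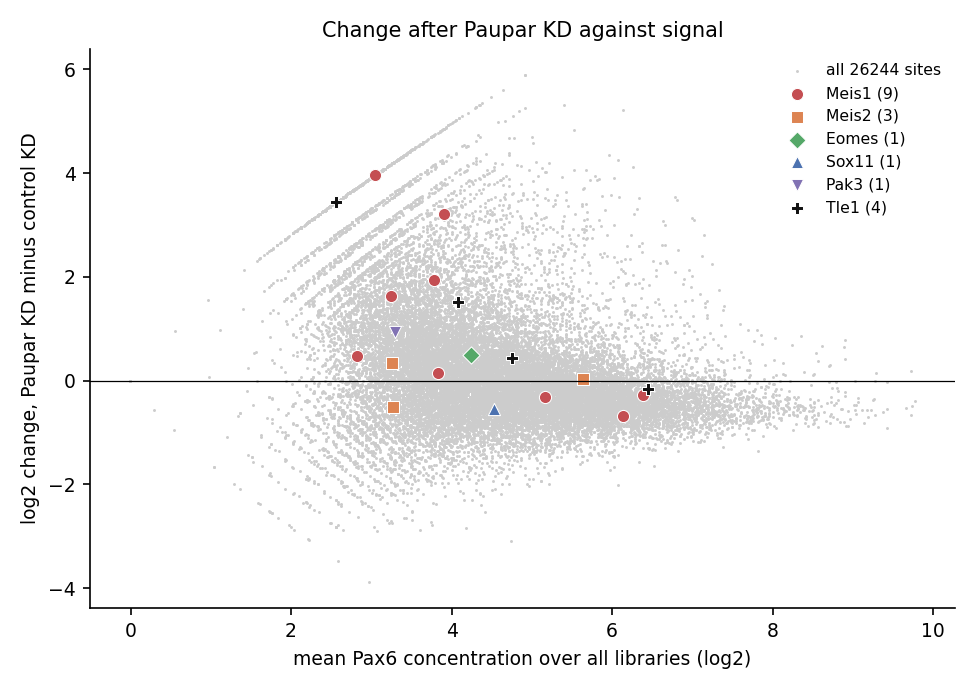
Log2 change (Paupar KD minus control KD) against mean concentration over all libraries for all 26244 sites (grey) and for the sites of the 6 genes (symbols, number of sites in brackets). The median of all sites is -0.03; the 2 member sites on the upper left edge are those listed at the floor in control KD.

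Meis1 encodes a TALE-class homeodomain protein that binds DNA with Pbx and Hox partners and, in the developing lens, regulates Pax6. Of its 9 sites, 2 lay at the promoter, 6 in introns and 1 just past the gene. The strongest, at the promoter (chromosome 11, 19018986 to 19019085, mm10), had 6.51 under control KD against 6.23 under Paupar KD, with an FDR (0.726) from the authors' deposited table. A further promoter site, 1.62 kb before the RefSeq start (19020535 to 19020634), had 6.43 and 5.75 (FDR 0.293), per the authors' deposited table. By mean signal these were at the 91.8 and 88.6 percentiles of all sites, and both had a summit in each of the 4 libraries.

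Inside the gene signal was weaker. The 6 intronic sites lay 73.8 to 121 kb from the start and within 47.1 kb of each other, and had concentrations of -0.01 to 3.75 in control KD and 3.05 to 4.75 in Paupar KD. Control KD summits were found at none of the 6, and 40.5% of all intronic sites had no control KD summit. Every member site had a summit in some library, so those of these 6 were all in Paupar KD libraries. The site called higher lay in intron 8 of 9 (18927523 to 18927622) and had 1.55 under control KD against 4.75 under Paupar KD, a log2 change of 3.21 (p = 0.00144, FDR 0.0394), per the authors' deposited table. Its only summit was in Paupar KD replicate 1, at the 67.4 percentile of the scores of that list. Among all 9653 intronic sites 3.80% were called higher, and among the 689 intronic sites within 0.1 of this site's mean concentration 4.64% were.

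Around the called site, in the same intron, lay 2 sites that were not called, all 3 within 4.30 kb. One (18930483 to 18930582) had 2.50 and 4.45 (FDR 0.226) and summits in both Paupar KD libraries, and the other (18926282 to 18926381) had 2.20 and 3.84 (FDR 0.385) and a summit in Paupar KD replicate 2 alone, by the authors' deposited table. A site in the last intron (18898079 to 18898178) stood at -0.01 under control KD, the floor of the table, against 3.96 under Paupar KD (FDR 0.0731), by the authors' deposited table. Its summit, too, was in Paupar KD replicate 1 alone. Since the floor is the lowest control KD value listed, no fold is given for it.

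Of the remaining intronic sites, that at 18916739 to 18916838 had 2.56 and 3.05, and that at 18945120 to 18945219 had 3.75 and 3.90. Their FDRs were 0.877 and 0.956 per the authors' deposited table. Just beyond the end of the gene (18877824 to 18877923) a stronger site had 5.31 and 5.0 (FDR 0.801, per the authors' deposited table). It stood at the 69.9 percentile of mean signal, yet its only summit was in Paupar KD replicate 2, at the 4.50 percentile of the scores there. As many sites as Meis1 or more were listed for 416 of 10195 gene symbols (4.08%); the gene is 139 kb long.

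**Figure D3:**
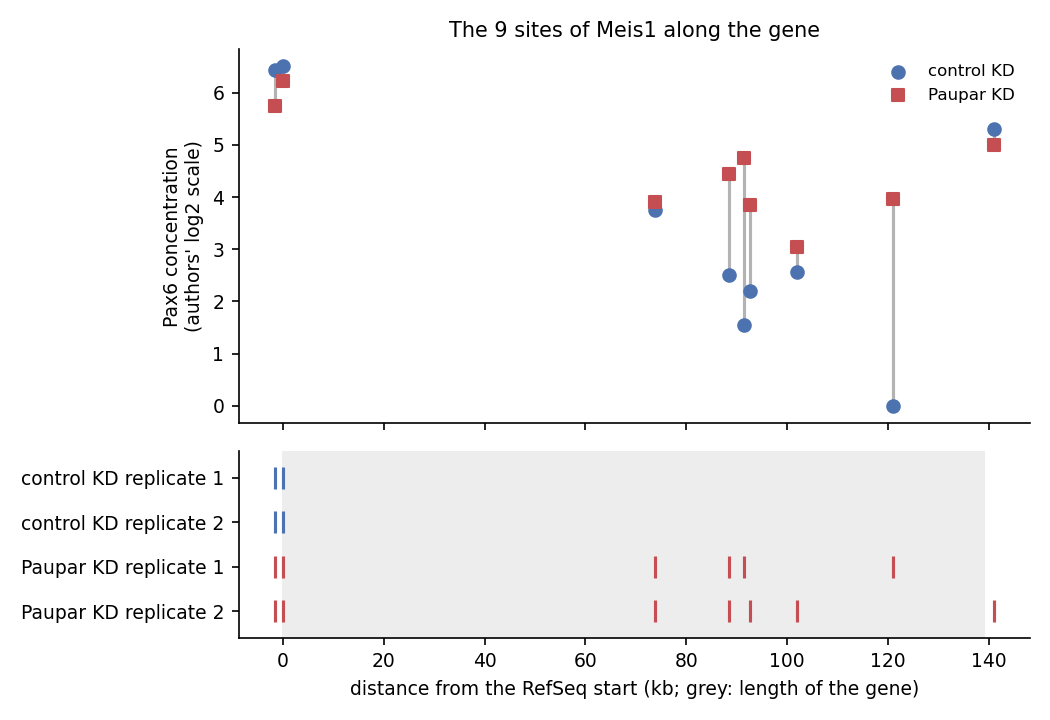
Upper panel, authors' mean Pax6 concentration (log2 scale) of the 9 Meis1 sites in control KD (circles) and Paupar KD (squares) against the distance from the RefSeq start in kb; lower panel, the sites with a summit within 250 bp in each library, with the length of the gene in grey. Control KD summits are at the 2 promoter sites, and the 6 intronic sites carry Paupar KD summits alone.

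Meis2, the paralogue that acts as a Pax6 cofactor in olfactory bulb neurogenesis, had 3 sites and no call. The strongest (chromosome 2, 116062621 to 116062720), 0.091 kb before an annotated transcript start and 1.95 kb inside the RefSeq start, had 5.62 under control KD against 5.66 under Paupar KD (FDR 0.979) per the authors' deposited table. All 4 libraries had a summit there. The 2 other sites were weak. An intronic one (116002375 to 116002474, intron 7 of 11) had 3.50 and 3.0, with a summit in control KD replicate 1 alone. The other (115758747 to 115758846), in an intron of the neighbouring gene BC052040 and 306 kb from the Meis2 start, had 3.08 and 3.41, where Paupar KD replicate 1 alone had a summit. Their FDRs were 0.856 and 0.913 per the authors' deposited table.

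A symbol was missing from 2 rows of the whole table, and 1 of them lay inside the RefSeq span of Meis2 (115861264 to 116067537). This site (116066540 to 116066639) lay 1.97 kb before the RefSeq start of the promoter window, which is not the outermost start. It was annotated to the promoter of a neighbouring transcript and had 4.93 and 5.06 (FDR 0.937) per the authors' deposited table. Since members were taken by symbol, it is not among the 19. Paupar KD replicate 1 had a summit within 250 bp of its middle, and the other 3 libraries had one 252 to 314 bp away.

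Neurog2, the proneural basic helix-loop-helix factor whose forebrain enhancers are bound by Pax6, had no listed site. The nearest lay 63.6 kb away, within an intron of Alpk1 (chromosome 3, 127696688 to 127696787), with 6.13 and 6.18 (FDR 0.970) per the authors' deposited table. In all, 7 sites lay within 500 kb of the Neurog2 start, and each carried the symbol of Ank2, Larp7 or Alpk1. An Ank2 intron site 291 kb away (127341708 to 127341807) was higher after Paupar KD, with 1.30 and 4.90 (FDR 0.00705), per the authors' deposited table. Distance alone does not connect it to Neurog2.

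Eomes, the T-box factor of intermediate progenitors, had a single site 11.3 kb from its start and beyond the end of the gene (chromosome 9, 118489476 to 118489575). It had 3.97 and 4.47 (FDR 0.805) per the authors' deposited table. Both Paupar KD libraries had a summit within 250 bp of its middle. Control KD replicate 1 had one 278 bp away, just outside that window, at the 60.3 percentile of its list. Within 500 kb lay 11 further sites under other symbols, of which 0 were called at an FDR below 0.05 per the authors' deposited table.

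Sox11, a SoxC factor of newly born neurons, was the assigned gene of a single distal site (chromosome 12, 27657673 to 27657772), 315 kb before its start. The site had 4.78 and 4.23 (FDR 0.732) per the authors' deposited table, with a summit in control KD replicate 1 alone. A listed site under the symbol Gm20187 lay nearer to Sox11, at 260 kb on its other side, with 4.04 and 3.84.

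Zic1 and Zic2 encode zinc finger factors of the neural plate and dorsal brain. For Zic1 the nearest listed site lay 1160 kb from the start, under the symbol Adamts7, and 3.13% of 32619 RefSeq starts had no nearer site. No library had a summit within 500 kb of the Zic1 start. For Zic2 the nearest site was 21.5 kb from the gene, at the promoter of Gm5089 (chromosome 14, 122453820 to 122453919), with 4.84 and 5.13 (FDR 0.840) per the authors' deposited table. The only other site within 500 kb, in intron 12 of 23 of Pcca and 204 kb from Zic2 (122684400 to 122684499), was lower after Paupar KD, with 5.78 and 3.85 (FDR 0.0327), per the authors' deposited table. Over all RefSeq starts the median distance to a listed site was 26.6 kb, and 14.7% of starts had one within 1 kb. By the same measure, 96.2% of starts were at least as far from a site as Meis1 and 94.7% as far as Pak3.

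**Figure D4:**
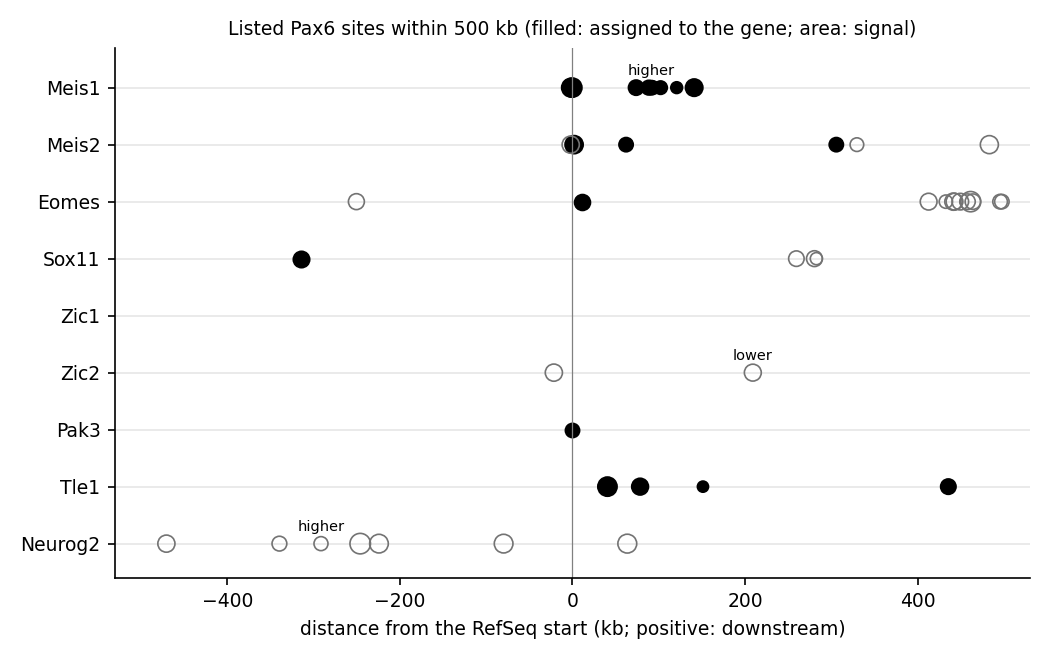
Listed Pax6 sites within 500 kb of the RefSeq start of each gene, against the distance in kb (positive is downstream; for Zic2, whose strand is not in the tables, along the chromosome; for Pak3 the first of 3 starts). Filled circles carry the gene's own symbol, open circles another or none, the area grows with the mean concentration, and "higher" or "lower" marks an FDR below 0.05. The row of Zic1 is empty, and the marked sites near Zic2 and Neurog2 belong to other symbols.

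Tle1 encodes a Groucho corepressor, a protein without its own DNA-binding domain that homeodomain and paired-domain factors recruit. Its strongest site (chromosome 4, 72160258 to 72160357, intron 6 of 19), 40.6 kb into the gene, was the strongest of all 19 in both groups, at 6.53 under control KD against 6.37 under Paupar KD (FDR 0.865) per the authors' deposited table. Each of the 4 libraries had a summit inside its 100 bp, at the 85.3 to 95.7 percentile of its list. A site 78.4 kb into the gene (72122403 to 72122502), 1.67 kb before the start of a short inner transcript, had 4.52 and 4.95 (FDR 0.775) per the authors' deposited table. Control KD replicate 1 was the library without a summit there.

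Past the end of Tle1 lay 2 sites in intergenic sequence, and at both Paupar KD replicate 1 alone had a summit. The nearer (72049565 to 72049664) stood at the floor, -0.01, under control KD against 3.43 under Paupar KD. Its p was 0.0354 and its FDR 1.0 per the authors' deposited table, a combination that was read as lying outside the adjustment. The farther (71765203 to 71765302), 436 kb from the start, had 3.13 and 4.65 (p = 0.0458, FDR 0.272) per the authors' deposited table. As at Meis1, the strongest site had summits in all libraries and the sites with more than 1 log2 unit of change had none in control KD. Control KD signal enters both the change and the summits, so this is a description. Against it, the site just past Meis1 (5.31 and 5.0) had a summit in 1 library only.

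Pak3 encodes a kinase activated by the small GTPases Rac and Cdc42, which shapes dendritic spines and, in islets, acts downstream of Neurog3. Its single site was the promoter site shown above (chromosome X, 143518440 to 143518539), with 2.75 under control KD against 3.69 under Paupar KD (FDR 0.686) per the authors' deposited table. This was the weakest promoter site of the set, at the 15.8 percentile of mean signal. Summits lay within 250 bp in both Paupar KD libraries, at the 6.28 and 10.3 percentiles of their lists. The other 2 Pak3 starts of RefSeq had no listed site in their windows.

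Summit lists are the only values that exist per library. Of the 19 sites, control KD replicates 1 and 2 had a summit at 6 and 5, and Paupar KD replicates 1 and 2 at 14 and 12, within 250 bp of the middle of the site. The 2 groups did not overlap, but nor did they over the whole table, as the shares below show. The means at the member sites were 5.5 ± 0.707 (SD, n = 2) and 13.0 ± 1.41 (SD, n = 2), a difference of 7.5 sites (two-sided exact permutation test, p = 0.33, the smallest that 2 against 2 allows). The listed sites and the summits come from the same libraries, so these counts are not independent of which sites were listed. Of the 19 sites, 0 lacked a summit in every library (3.56% of all sites did), and 10 had one in 1 library only. The difference is therefore a description. Over the whole table the same libraries had a summit at 49.9%, 34.9%, 54.4% and 63.1% of sites, which at the member sites became 31.6%, 26.3%, 73.7% and 63.2%. The lists hold 14311, 9983, 15611 and 17942 summits, so list length moves with the group. Cut to the 9983 highest scores each, they supported 6, 5, 9 and 7 member sites, and the difference was 2.5 sites. No share of all sites is given for the cut lists, so these counts stand without a background. The part of list length in the difference was not tested beyond this.

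In all, 12 of the 19 sites (63.2%) had summits in Paupar KD libraries and in no control KD library, against 37.8% of all sites. The 6 intronic sites of Meis1 and the site past its end made up most of these 12. Of these 12, 4 had them in both Paupar KD libraries (Eomes, Pak3 and 2 in introns of Meis1), 5 in replicate 1 alone and 3 in replicate 2 alone. As shares of the 19 sites these were 21.1%, 26.3% and 15.8%, against 8.25%, 13.0% and 16.5% of all sites, so the last was near the background. The 5 sites of replicate 1 alone included the called Meis1 site and both sites at the floor. Over the whole table, the 3403 sites that Paupar KD replicate 1 alone supported had a median log2 change of 1.49 and 6.05% were called higher. The 4339 supported by replicate 2 alone had a median of 0.33, and 0.761% were called higher. Sites chosen for a summit in a Paupar KD library tend by that choice to a positive change, so these values are a description. With no concentrations per library, no call could be recomputed without a library.

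Promoter sites and other sites were also set apart. Of the 5 promoter sites, 3 had summits in all 4 libraries (both of Meis1 and that of Meis2), and their changes had a median of 0.04 on the log2 scale. Of the other 14 sites, 11 had no control KD summit (78.6%, against 40.8% of all such sites), and the median change of the 14 was 0.49. The 6 intronic sites of Meis1 and the site past its end made up most of these 11, so the share rests largely on 1 gene. The promoter sites of Pak3 and Tle1 lacked a summit in at least 1 library. The 3 other sites with a control KD summit were the strong intronic site of Tle1, an intronic site of Meis2 and the distal site of Sox11. All promoter sites of the table had a median change of -0.23 and 20.6% had summits in all 4 libraries; the other sites had a median of 0.08.

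**Figure D5:**
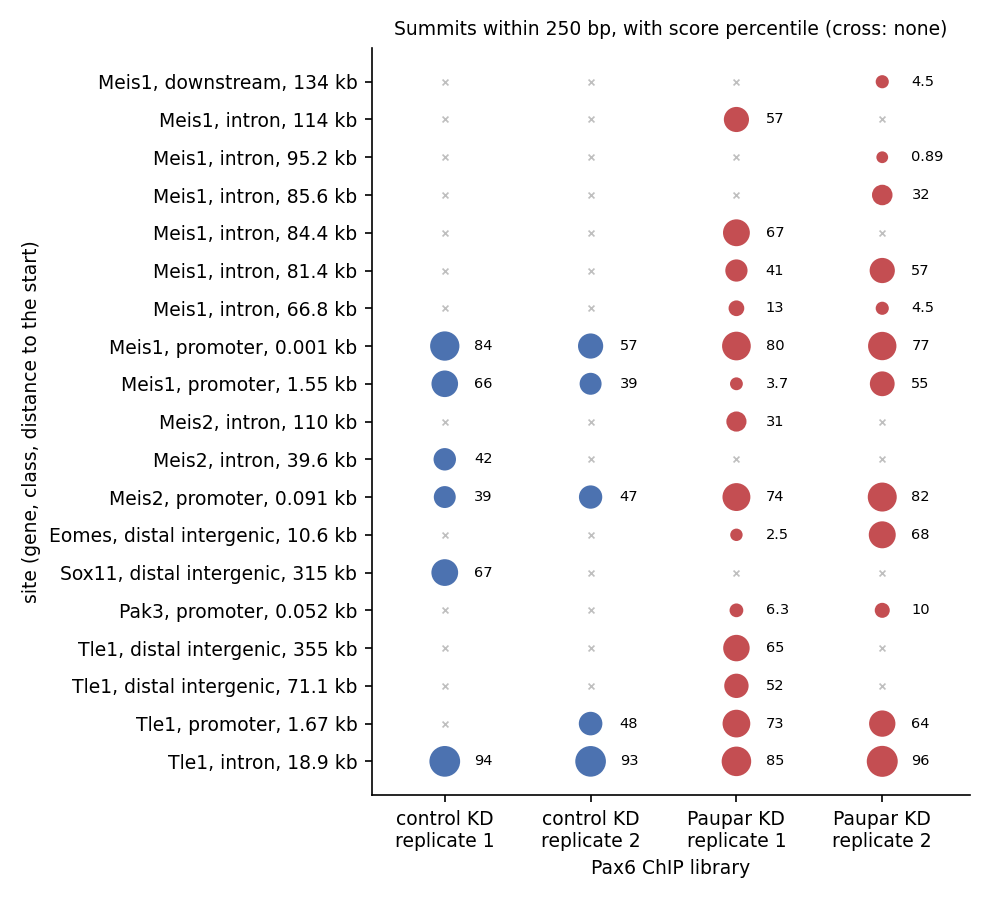
Summits within 250 bp of the middle of each of the 19 sites (rows) in the 4 Pax6 ChIP libraries (columns); the circle area and the number give the percentile of the authors' summit score within its own list, and a cross marks no summit. The control KD columns hold 6 and 5 circles, the Paupar KD columns 14 and 12.

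Genes of the same families were looked up from a list. Of 26 relatives (Pbx and Pknox partners and Meis3, other Tle, Pak, Zic, SoxC, neurogenin and T-box genes), 16 had listed sites, 37 in all, of which 1 was higher and 1 lower at an FDR below 0.05 per the authors' deposited table. Each is 2.70% of the list's sites, against 3.39% higher and 0.880% lower of all sites. Their median log2 change was -0.16. The higher site was assigned to Sox4, a SoxC factor like Sox11, and lay 21.2 kb before its start, with 4.15 and 5.69 (FDR 0.0472), per the authors' deposited table. The lower site, 8.14 kb before Sox12, the remaining SoxC gene, had 7.28 and 6.22 (FDR 0.0128) per the authors' deposited table. Its summits within 250 bp were nonetheless in both Paupar KD libraries and in no control KD library. Among the strongest sites of the list by mean signal were that of Sox12 and one of Tle4, a corepressor like Tle1, at its promoter (7.77 and 7.44, FDR 0.530 per the authors' deposited table). Zic4 and Zic5 had no listed site, and neither had Neurog1 or Neurog3.

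Of 50 other genes of the neural Pax6 programme, 32 had listed sites, 130 in all, with 5 higher and 0 lower at an FDR below 0.05 per the authors' deposited table and a median log2 change of -0.09. The 5 are 3.97% of the 126 sites of this list inside the adjustment, near the 3.39% of all sites. Higher sites were assigned to Hes1, a Notch effector (4.78 and 6.85, FDR 7e-05), Barhl2, a homeodomain factor (5.74 and 6.96, FDR 0.0128), and Dmrta1, a DM-domain factor (4.20 and 5.96, FDR 0.0215), per the authors' deposited table. The others were a Gli3 intron site (2.41 and 5.05, FDR 0.0241) and a Foxp2 site at the promoter of an inner transcript (0.55 and 4.52, FDR 0.0413), per the authors' deposited table. The strongest sites of that list were those of Cdh4 (9.10 and 8.57), Ezh2 (8.99 and 8.61) and Foxp2, at a promoter (8.50 and 7.99), none of them called. The remaining 18 genes had no listed site.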

How the data were processed

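Pax6 ChIP-seq was done in 4 libraries, 2 of control KD and 2 of Paupar KD; groups were taken from the sample titles. The submitters' processing notes name Bowtie2, MACS2, DiffBind and ChIPseeker, with no versions, and the build mm10; how signal was normalized and tested is not given in the sources used here. In the deposited table the authors give log2 concentrations per group, a log2 fold (its sign was turned here), a p-value and an FDR per site; the log2 scale was read from the column names and values. The −log10 scores of summits are the authors' own, deposited per library; the unit was inferred from their lowest value of 2.0, and scores were used to rank and filter within a list. Ranks in lists of different lengths show no change. One list carries another replicate number in its name than in its title; it was used under the sample it belongs to. Sites with an FDR of 1 and p below 0.99 (1010 of 26244, 1 of them a member site) were read as lying outside the adjustment.

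Sites were not retested, since values per library are not in the table. Read depth is unknown and no counting interval was computed. The libraries are described as duplicate biological samples, and which spread the deposited p-values measure is not given in the sources used here. Replicate numbers were not shown to pair samples. A summit supported a site within 250 bp of its middle, a step tested on simulated data. The number of member sites with a summit was compared by an exact permutation test. Gene positions and promoter bases came from RefSeq tables of GRCm38.p6: 9 of 9 members matched the gene table and 8 of 9 the promoter table. All sites of the members are described; from the lists, the called sites and the 3 strongest are named, except for items that are not reported here. Members and lists were chosen with earlier results of these data known. Alternatives were FDR thresholds, subsets of sites, summit windows, score filters and left-out libraries. Python 3.11.15, pandas 2.3.3 and matplotlib 3.10.9 were used.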

Additional observations from a re-analysis of the deposited data

How the results depend on the processing

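The count of 1 higher member site became 2 at an FDR below 0.1, 5 at an unadjusted p below 0.05, and 0 at an FDR below 0.01, among the 9 sites with a summit in at least 2 libraries, and among the strongest site of each gene. It stayed at 1 without sites at the floor and within 100 kb of the start, and the count of lower sites was 0 under each of the 7 alternatives. The median log2 change of 0.43 became 0.14 with a summit in at least 2 libraries, 0.34 without sites at the floor, 0.455 within 100 kb and -0.065 over the strongest sites; fewer sites enter each of these. The difference of 7.5 sites with a summit kept its sign throughout: 4.5 within 100 bp, 7.0 within 500 bp, 3.5 with a score of at least 5, 2.5 with lists of equal length, and 6.5 to 8.5 without each library in turn, each with an exact permutation p of 0.33, the smallest possible. With the replicate number of the titles as a block it was 7.5 (exact sign-flip p = 0.50, the smallest that 2 pairs allow); the labels do not say that a number marks a shared culture. In the main setting the Paupar KD libraries also had a summit at more of all sites (54.4% and 63.1%, against 49.9% and 34.9%). No share of all sites is given for the other settings, so the kept sign cannot be read as a trait of the member sites. Motif matches were found in 0 of 2 listed sites and in 1 of their 2 promoter windows. The planned search in wider windows around the sites was not run, as it needs genome sequence that was not used here. Depth per library is unknown, and the calls could not be recomputed without a library.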
